A study of Mus musculus with 16 samples.

Results

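The integrins and laminins on the array were the 37 genes whose symbols follow the Itga, Itgb, Lama, Lamb and Lamc series, 26 integrin chains and 11 laminin chains, read by 51 of 55681 probes and standing among 31982 named genes. They were chosen by symbol alone, and a gene measured by several probes was summarized by the probe with the highest mean signal over all arrays. The study sorted cardiomyocytes of mouse hearts (CD1, wild-type) by the amount of ITGA6 protein on their surface and measured mRNA on one-color Agilent arrays, with 4 samples in each of 4 groups. At embryonic day 15.5 (E15.5) the cells were ERBB-2+ and either ITGA6low (EL) or ITGA6high (EH), and at postnatal day 2 (P2) they were either ITGA6low (PL) or ITGA6high (PH). Samples 2, 3, 6 and 8 formed the E15.5 groups and samples 2, 3, 4 and 5 the P2 groups. Each sample was a pool of 20 to 30 embryonic or 15 neonatal hearts with at least 50000 cells per fraction, from which 10 ng of RNA was labeled. The embryonic cells were isolated by sorting for ERBB-2, a receptor tyrosine kinase on embryonic cardiomyocytes, and the neonatal cells by magnetic depletion of non-myocytes. All P2 arrays lay on a slide of their own, so stage, slide and isolation procedure cannot be told apart. The samples of a group came from independent sorting experiments, and the p-values measure the spread between those pools.

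Integrins are cell surface receptors made of an α and a β chain that bind extracellular matrix and connect it to the cytoskeleton, and the α chain largely sets the ligand. Laminins are trimers of an α, a β and a γ chain and form the sheet of basement membrane that wraps each cardiac muscle cell. In striated muscle the laminin with the α chain Lama2 is the main muscle form, and the integrin α chain Itga7, paired with Itgb1, is a main receptor for it.

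The probes decide what each value measures, and the first 30 bases of the 60-base probes are shown where genes are read by probes that gave different results or were called between the fractions at both stages. Positions are those of the array annotation on mouse build mm9, and bases run 5′ to 3′ along the transcript, which lies on the plus strand in all of them. The Itga6 probes are shown because they answered the sort differently. The probe with a RefSeq accession lies 4123 bases downstream of the probe with an Ensembl transcript accession, which was the brightest over all arrays.
Itga6, RefSeq probe, chr2:71694756-71694815: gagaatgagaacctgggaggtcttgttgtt
Itga6, Ensembl-transcript probe, chr2:71690633-71690692: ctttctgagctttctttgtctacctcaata
The Itga10 probes are shown because they share 54 of their bases (shared bases in capitals), so they are a repeat reading of the same site rather than independent evidence.
Itga10, brightest probe, chr3:96468377-96468436: agtcccTCCTGGGGACTGTCATGGTGAGCA
Itga10, other probe, chr3:96468383-96468442: TCCTGGGGACTGTCATGGTGAGCAAATGGT
The brightest of the Itgam probes opens with a CA dinucleotide repeat of 20 bases (in capitals), a feature that 22 probes on the array (0.0395%) share, whereas the longest such repeat in the other Itgam probes was 4 bases.
Itgam, brightest probe, chr7:135261755-135261814: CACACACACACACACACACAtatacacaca
Itgam, second probe, chr7:135212140-135212199: tgttaaccagacaggtgccctctaccagtg
Itgam, remaining probe, chr7:135260275-135260334: aagttcacaatcctgtaccactcattgtgg
Lamb3 and Itga11, read by 1 probe each, were called higher in the high fraction at both stages.
Lamb3, chr1:195170009-195170068: tgtatgaacacaaaacccaataaaaatctt
Itga11, chr9:62631667-62631726: gtttcatctgaacaatgtcatctgttcccc
Whether these probes lie in coding or untranslated sequence was not determined.

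The labels were first checked against cell type markers. All 8 cardiomyocyte markers, among them the sarcomere genes Tnnt2 and Myh6 and the transcription factor Nkx2-5, were well above background on all 16 arrays, and their summed normalized signal (arbitrary units) was 262107, 240969, 252743 and 226508 on the EL arrays and 441163, 458005, 434449.8 and 411287 on the EH arrays. On the PL arrays it was 581456, 581421, 567114 and 530311, and on the PH arrays 502919, 547144, 577468 and 502848. Myh6 had the highest mean signal of this list and was 3.58-fold higher in EH than in EL (adjusted p = 1.18e-07), the only marker of the list past 3-fold between the fractions. All 6 atrial markers were higher in ITGA6high cells at both stages, from 6.59-fold for Tbx5 to 74.3-fold for Sln at E15.5. All 5 ventricular markers were lower in ITGA6high cells at both stages, from 2.23-fold for Myl2 to 30.8-fold for Hey2 at E15.5. Nr2f2 was above background on no PL array, and Hey2 on 1 EH array and no PH array. Nppa had the highest signal of the atrial list and Myl2 of the ventricular list. In sorted pools fewer cells of a type and less RNA per cell cannot be told apart.

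**Figure D1:**
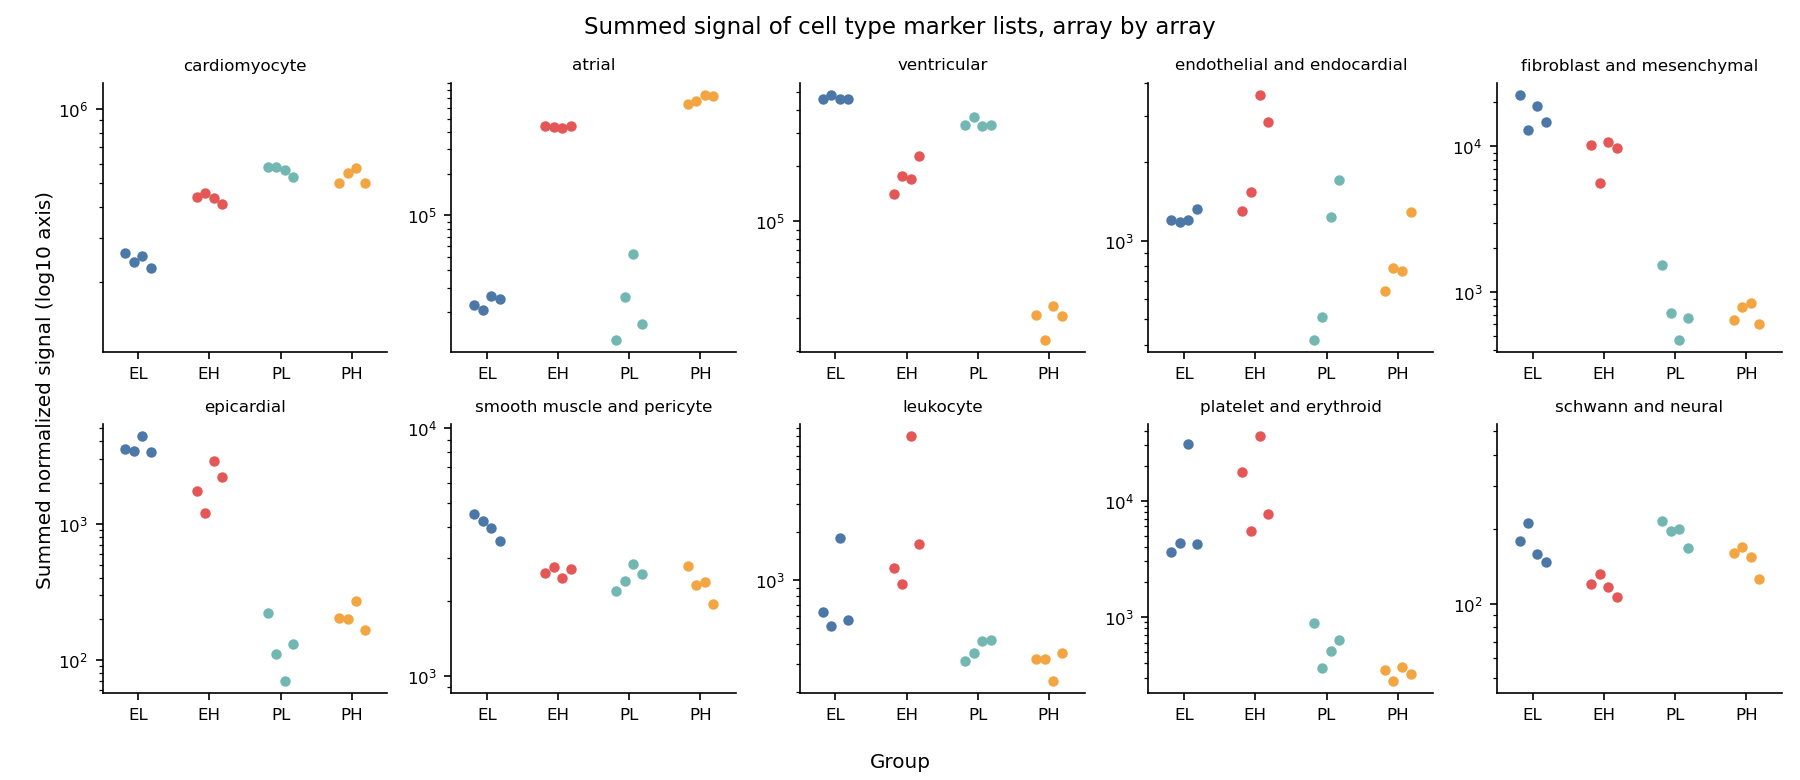
Summed normalized signal of each marker list (log10 axis, arbitrary units) for the 4 samples of EL, EH, PL and PH, each point an array. Atrial and ventricular lists separate the fractions at both stages, fibroblast and epicardial lists are lower on all P2 arrays, and EH sample 6 has the highest leukocyte sum at 7973.

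Of the 37 genes, 18 were well above background on all 16 arrays and 8 more on all arrays of at least 1 group, so 26 had a full set of measured values somewhere. A further 7 (Itga2b, Itga4, Itgad, Itgal, Itgax, Itgb2 and Itgb7) passed on scattered arrays, and Itga2, Itgae, Itgb8 and Lamc3 passed on none. Of the 51 probes, 22 were above background on all 16 arrays and 8 on none. Genes with all 4 arrays above background numbered 25 in EH and 20 in each of EL, PL and PH. The share of all probes above background was highest in EH sample 2, at 46.5%, and lowest in PL sample 5, at 35.7%. Where no array of a group was well above background a member's difference is given as at least N-fold, the mean of the brighter group over a floor set by the dimmest detected probes or, where higher, the gene's own signal. Folds of genes from the marker lists and the lists of other molecules are fitted values without such a bound.

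ITGA6 protein was the sorting criterion, so the Itga6 transcript is a check of the labels and not a finding. By its RefSeq probe the signal was 525, 783, 650.4 and 543 in EL against 10907, 14097, 11451 and 11034 in EH. At P2 it was 240.4, 251, 316 and 332 in PL against 6428, 5709, 6688 and 6974 in PH. No array of a high fraction came near an array of a low fraction, and the differences were 19.1-fold at E15.5 and 22.8-fold at P2. By the Ensembl-transcript probe the signal was 2002, 2622, 2298 and 2234 in EL and 2478, 4056, 3322 and 3907 in EH, and 6882, 8503, 8448 and 10906 in PL and 7369, 9949.7, 9141 and 11021 in PH. The fractions overlapped at both stages by this probe, with log2 differences of 0.57 ± 0.18 (SE) at E15.5 (adjusted p = 0.0718) and 0.11 ± 0.18 at P2 (adjusted p = 0.869). With sample number as a block, the E15.5 difference by this probe passed (adjusted p = 0.00681), and it also passed without EH sample 2 (adjusted p = 0.0182). It passed as well with normexp background correction, with detected probes alone and with the methods' test (adjusted p = 0.0332, 0.0291 and 0.0382). The probes also moved in opposite directions between stages. From E15.5 to P2 the RefSeq probe fell 2.19-fold in the low and 1.84-fold in the high fraction (adjusted p = 5.69e-05 and 5.94e-04), while the Ensembl-transcript probe rose 3.76-fold and 2.74-fold (adjusted p = 3.36e-06 and 4.89e-05). Which transcripts each probe binds was not tested.

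**Figure D2:**
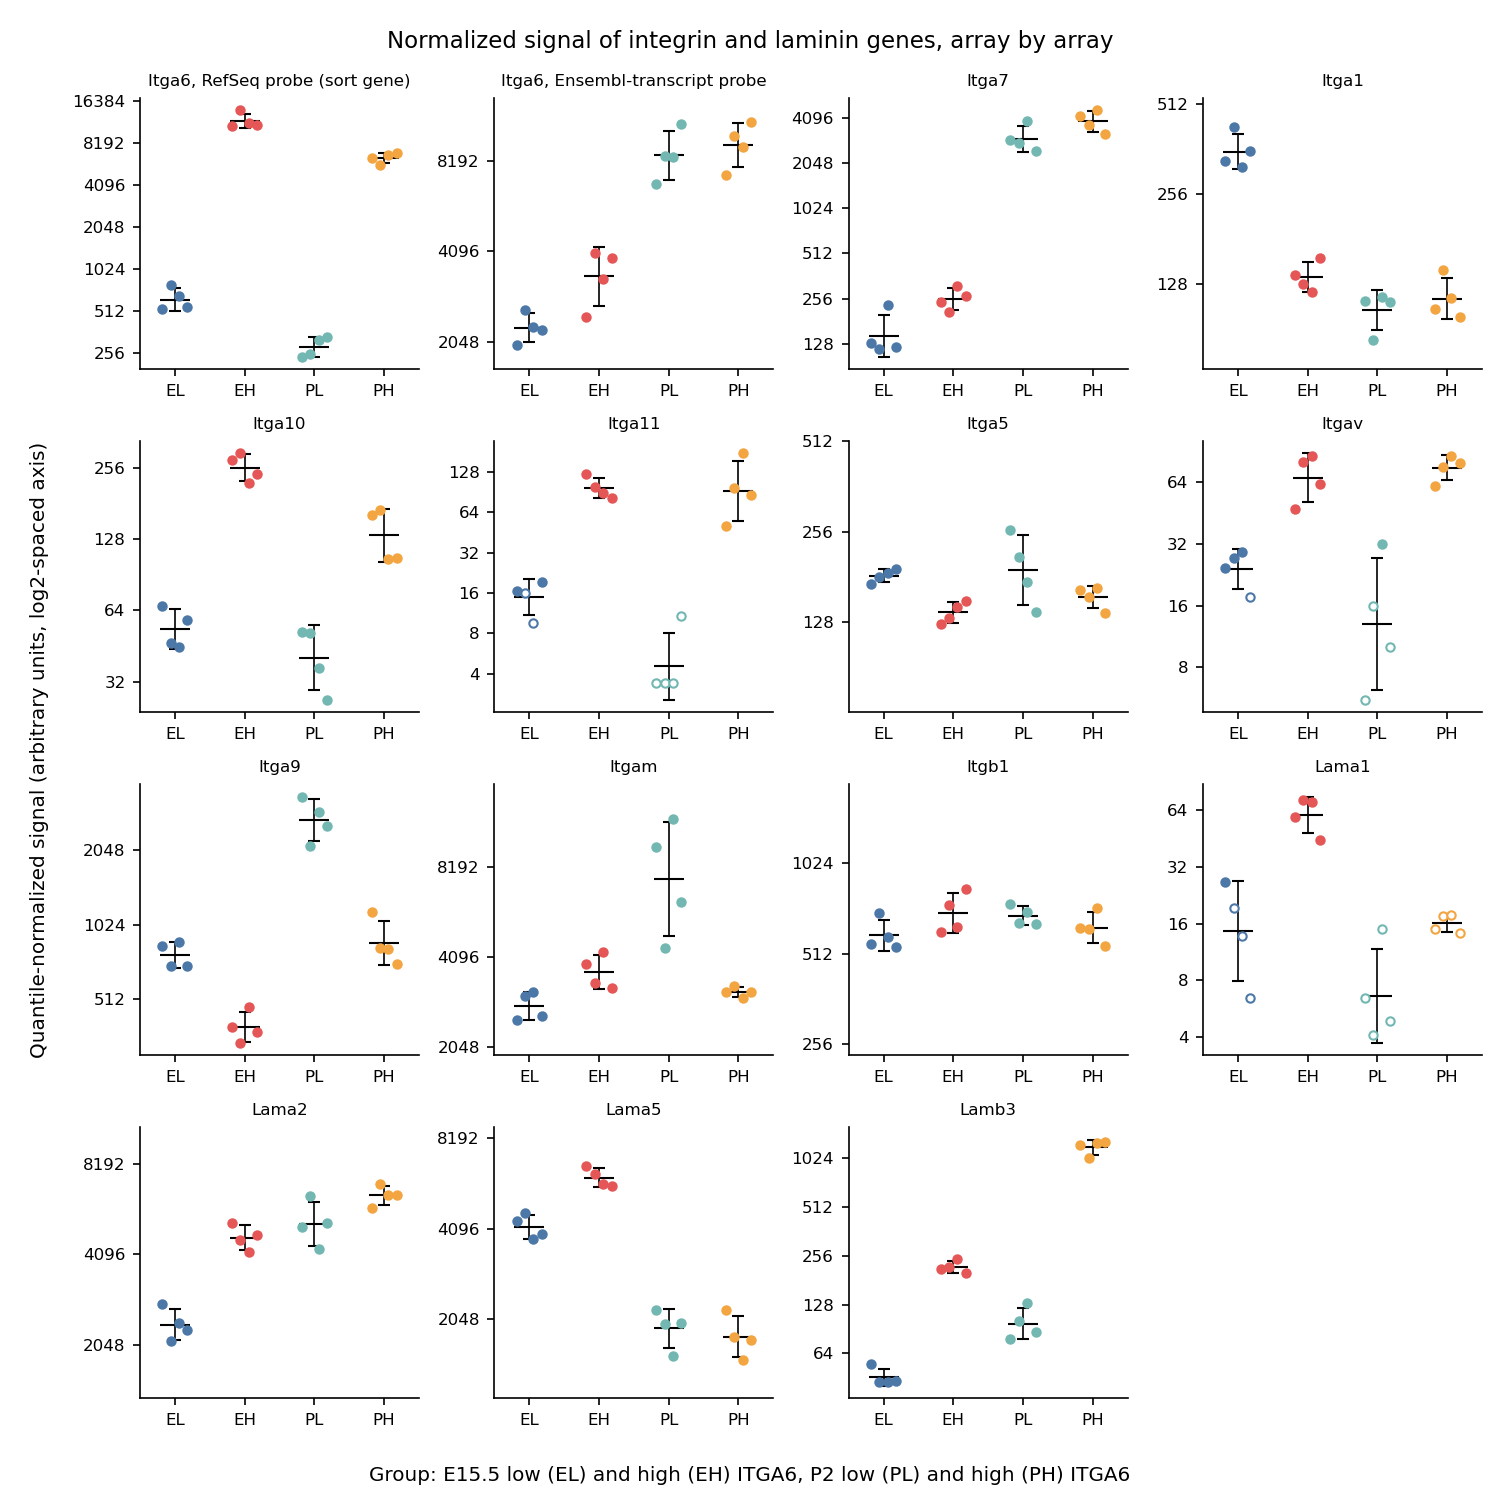
Normalized signal (arbitrary units, log2-spaced axis) of the genes described in full, by group, with both Itga6 probes. Each point is an array, hollow where not well above background, and the bar with whiskers is the mean ± SD of the log2 values (n = 4). Lamb3, Itga10 and the RefSeq probe of Itga6 are higher in the high fraction on every array, Itga9 is lower there at both stages, and Itga7 is higher on every P2 array.

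Between the E15.5 fractions, 4 of the 37 genes were called higher in EH, by the criterion of an adjusted p of at most 0.05 and at least 3-fold: the collagen receptor chains Itga10 and Itga11 and the laminin chains Lama1 and Lamb3. This was 10.8% of the members, against 1.61% of all genes, and none was lower by that criterion, against 0.557% of all genes. By adjusted p alone 13 were higher, against 5.89% of all genes, and 3 were lower, Itga1 and Itga9 among them, against 4.81%. Between the P2 fractions Itga10, Itga11, Itgav and Lamb3 were higher in PH by both parts of the criterion, 4 of 37 against 2.16% of all genes, and Itga9 was lower, 1 of 37 against 1.12%. By adjusted p alone 8 were higher (background 8.07%) and 3 lower, Itga9 and Itgam among them (background 6.73%). The counts by adjusted p alone include Itgb8 at E15.5, above background on no array, and Itga8 at P2, above background on no P2 array. The shares over all genes, here and below, include genes that were not measured. Of 31982 genes 15619 had a group with all arrays above background, and of the 37 members 26 had. Shares over measured genes alone were not computed. All high-fraction arrays exceeded all low-fraction arrays for 12 of 37 genes at E15.5 (background 9.36%) and 7 at P2 (background 8.44%), and all lay below them for 5 (background 11.0%) and 6 (background 7.60%). The median log2 difference over all 37 genes was 0.38 at E15.5 and 0.13 at P2, beside -0.03 and -0.01 over all genes. With normexp background correction (offset 50), no member was called at E15.5 and Lamb3 was the sole member called higher in PH. With each array scaled to its 75th percentile the median log2 difference over all probes was -0.18 at E15.5 and -0.14 at P2.

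**Figure D3:**
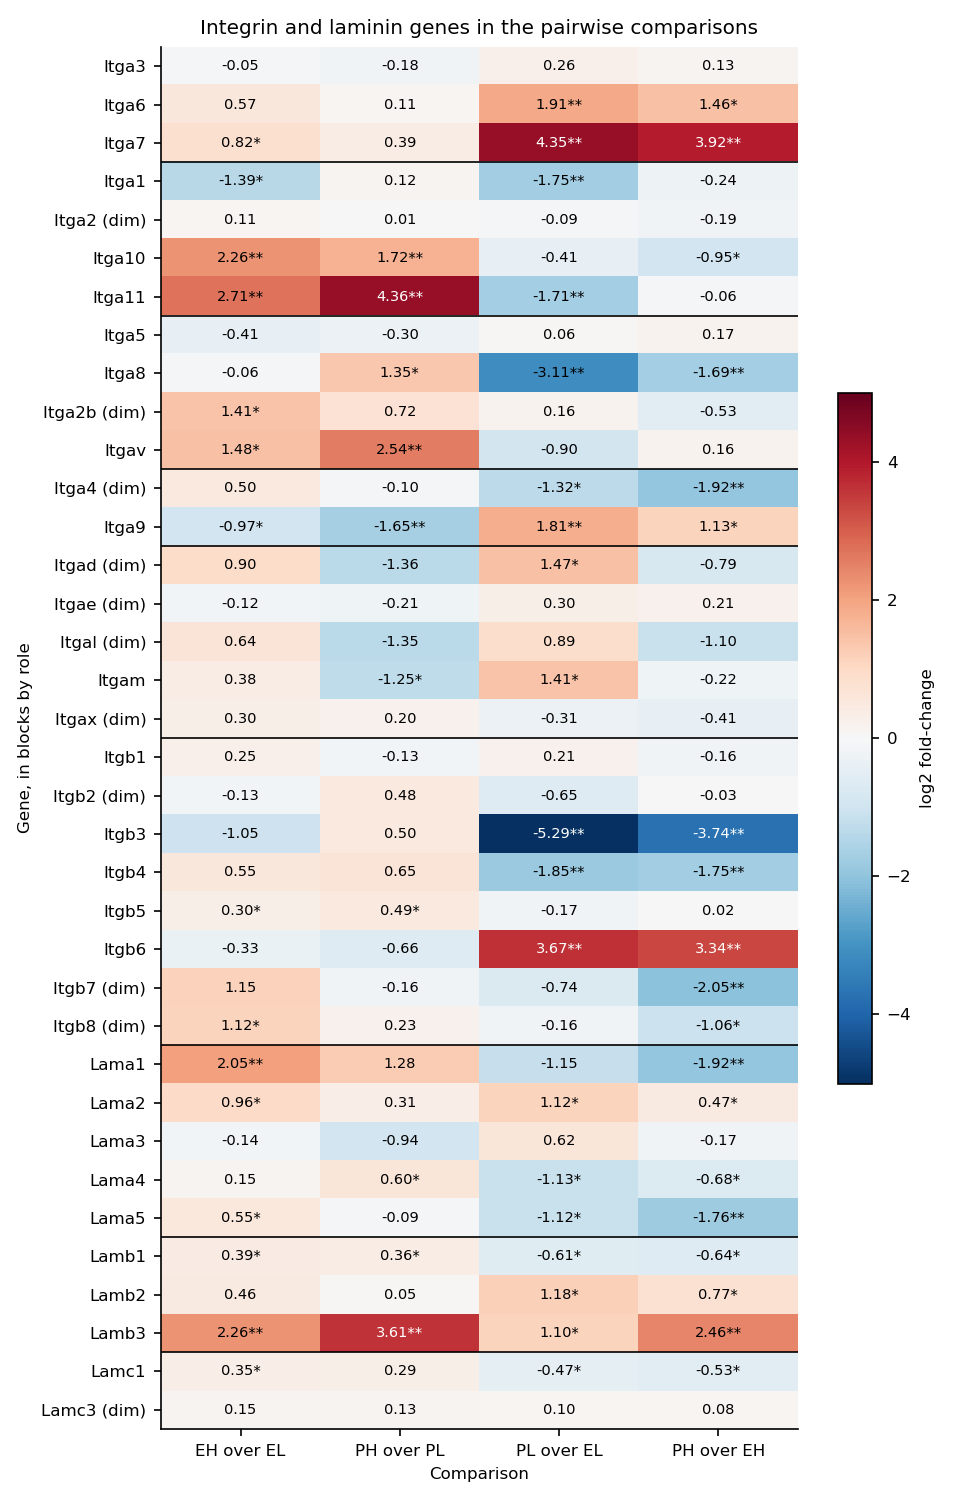
Log2 fold-change of the integrin and laminin genes, in blocks by role, in the 4 pairwise comparisons (color scale and printed values). A single asterisk marks genes passing at an adjusted p of 0.05, a double asterisk those also past 3-fold, (dim) marks genes without a full group above background, and values against a group below background are fitted values, not bounds. Itga10, Itga11 and Lamb3 carry double asterisks in both fraction comparisons, and Itgb3 has the lowest value, -5.29, in PL over EL.

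Markers of other cell types also differed between the E15.5 fractions, where 1.61% of all genes were called higher in EH and 0.557% lower. Of 10 endothelial and endocardial markers, 5 were called higher in EH (Cdh5, Tie1, Flt1, Emcn and Eng), and the list summed to 1199, 1176, 1204 and 1324 in EL and 1305, 1543, 3604 and 2854 in EH. Cdh5, Tie1, Tek and Emcn were not well above background on any EL array, so their differences are fitted values, and Kdr had the highest mean signal. Leukocyte markers summed to 632, 515, 1850.4 and 562 in EL and 1188, 942, 7973 and 1697 in EH, with 2 of 9 called higher (Cd68 and Lyz2), a median log2 difference of 1.74, Csf1r the brightest and the defining gene Ptprc above background on 2 EH arrays only. Platelet and erythroid markers summed to 3654, 4328, 30636 and 4205 in EL and 17793, 5449, 35670.3 and 7667 in EH, with 2 of 7 called higher (Pf4 and Gp9) and Hba-a1 the brightest. Sample 6 had the highest leukocyte and the highest platelet and erythroid sum in both fractions. Fcgr1 was above background on no array. Of 6 smooth muscle and pericyte markers Rgs5 was called higher in EH, Cspg4 was lower in both high fractions (3.16-fold and 3.04-fold, adjusted p = 2.38e-07 and 9.53e-08), Mcam was the brightest and Myh11 was above background on no array. Of 6 Schwann and neural markers none differed past 3-fold between the fractions, and Erbb3, Sox10 and Foxd3 were above background on no array. At P2 none of the endothelial, leukocyte or platelet and erythroid markers were called between the fractions, and Pf4 was a fitted 5.32-fold higher in PH (adjusted p = 0.153). Fibroblast and mesenchymal sums were 12910.0 to 22416 in EL and 5611 to 10692 in EH, and epicardial sums 3347 to 4352 and 1197 to 2892. Both sums were lower on every EH array than on every EL array, with median log2 differences of -0.59 and -1.25, and no marker was called lower. Of the epicardial list Tbx18 passed as lower (adjusted p = 0.00993), while of the fibroblast list Fbn1 alone passed, as 2.12-fold higher in EH (adjusted p = 0.00145). The part of these cells in the E15.5 differences was not tested.

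The E15.5 calls were also compared across samples and slides. Without sample 6 of EL or of EH the E15.5 calls comprised the same 4 genes, with no gene lost or gained. Within slide 1 (EL samples 2 and 8, EH samples 2, 3 and 8) the log2 differences were 2.11 for Itga10, 2.48 for Itga11, 2.14 for Lama1 and 2.11 for Lamb3. Within slide 2 (EL samples 3 and 6, EH sample 6) they were 2.27, 2.85, 2.12 and 2.51. Lama1 did not pass within slide 1 (adjusted p = 0.0995). Within slide 2, whose 1 EH array was assumed to vary like the other groups, Itga11 and Lama1 did not pass (adjusted p = 0.145 and 0.154).

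**Figure D4:**
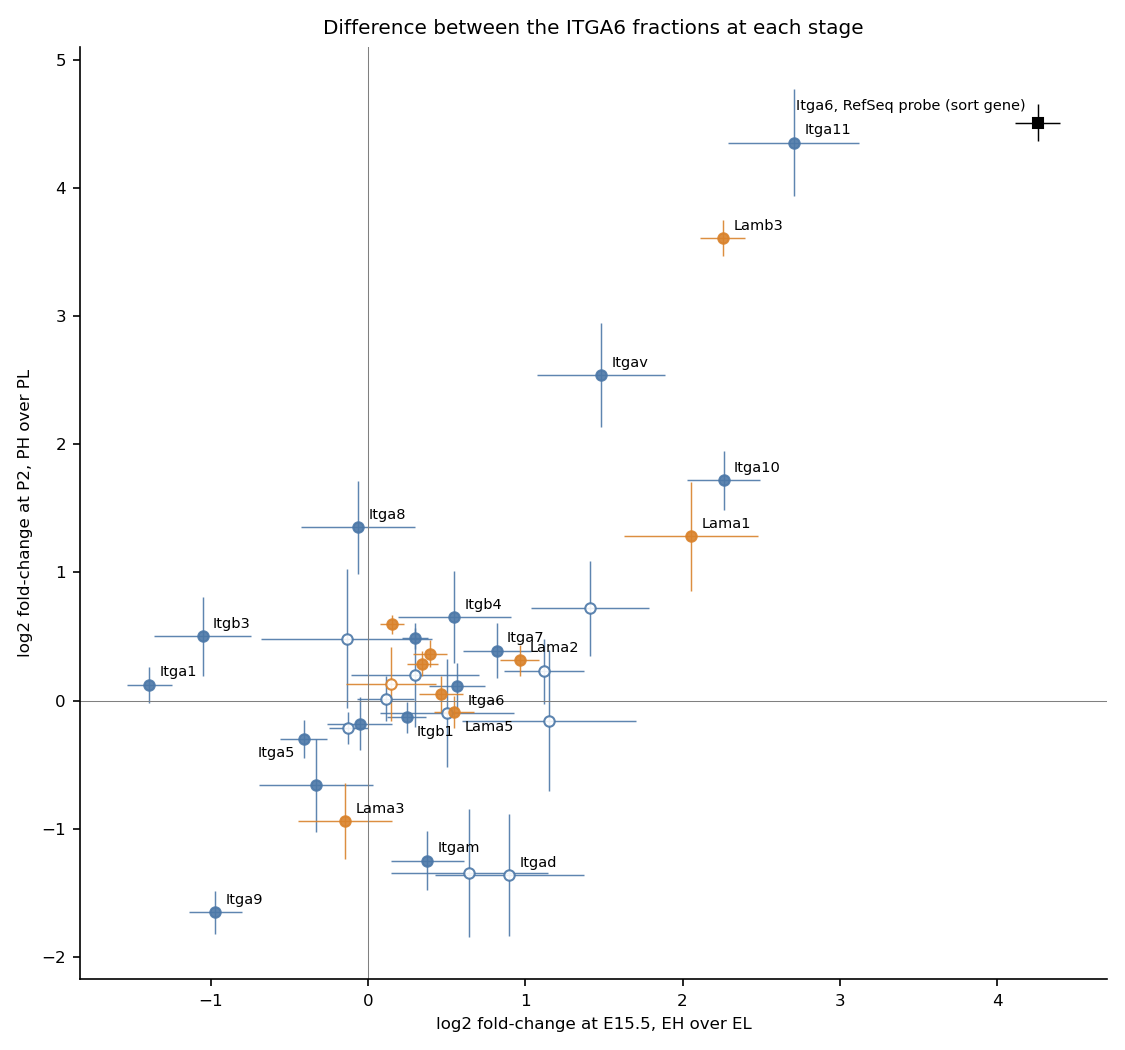
Log2 fold-change of EH over EL (x axis) and of PH over PL (y axis) for the genes of both families, with SE bars, blue for integrins, orange for laminins, hollow where no group was fully above background, and a black square for the RefSeq probe of Itga6. Itga11, Lamb3, Itgav and Itga10 lie high on both axes, Itga9 lies low on both, and Itga1 and Itgam are set apart on a single axis.

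Among the laminin-binding α chains other than Itga6, the sort gene, Itga7 passed between the E15.5 fractions and Itga3 did not. Itga7, the laminin receptor chain of mature striated muscle, gave 131, 119, 232 and 122 in EL and 244, 210.4, 310.3 and 267 in EH. The groups overlapped through EL sample 6, and EH was 1.76-fold higher (adjusted p = 0.0319), a difference that missed the threshold when any of 6 arrays was left out (EL 2, 3 or 8, EH 2, 6 or 8, adjusted p 0.0615 to 0.101) or with the E15.5 groups alone in the fit (adjusted p = 0.0863). At P2 it gave 2899.8, 2764, 3914 and 2439 in PL and 4201, 3667, 4576 and 3188 in PH, which overlapped (adjusted p = 0.371). All P2 arrays lay far above all E15.5 arrays, 20.4-fold in the low fraction (adjusted p = 1.50e-08) and 15.2-fold in the high fraction (adjusted p = 5.64e-08). Itga3, a laminin receptor chain of epithelia, averaged 95.1 ± 9.23 for EL and 92.5 ± 16.2 for EH at E15.5, and 116 ± 24.8 for PL and 104 ± 30.6 for PH at P2 (SD, n = 4) and passed in no comparison.

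The collagen-binding α chains behaved differently from each other. Itga10, which pairs with Itgb1 as a collagen receptor, gave 67.1, 46.8, 44.7 and 58.3 in EL and 277, 294, 220.4 and 241 in EH. The P2 values were 52.1, 51.6, 36.8 and 26.9 in PL and 162, 170.2, 106 and 106.7 in PH. Every high-fraction array exceeded every low-fraction array of its stage. The differences were 4.79-fold at E15.5 (log2 2.26 ± 0.23, adjusted p = 2.51e-05) and 3.29-fold at P2 (log2 1.72 ± 0.23, adjusted p = 1.45e-04), the latter under 3-fold without PL sample 5. The overlapping probe gave 4.55-fold and 4.01-fold.

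Itga11, another collagen receptor chain known from fibroblasts, gave 16.6, 15.9, 9.47 and 19.5 in EL, with 2 of 4 arrays above background, and 123, 99.3, 88.8 and 82.0 in EH. It gave 3.41, 3.37, 3.41 and 10.8 in PL, with no array above background, and 50.4, 97.4, 177 and 86.1 in PH. High and low fractions were fully separate at both stages. EH was 6.54-fold higher than EL (adjusted p = 7.87e-04), and PH was at least 4.81-fold higher than PL (adjusted p = 6.56e-06). The difference between the stages in these folds did not pass (adjusted p = 0.207). It was called without PL sample 5, as a fitted value with no PL array above background. EH and PH overlapped. Of 10 fibroblast and mesenchymal markers none was called higher in EH (1.61% over all genes) and 2 were in PH (2.16%). These were Fbn1 and Ddr2 (adjusted p = 2.03e-07 and 0.00128), above background on no PL array, while Pdgfra, Tcf21 and Thy1 were not above background on any P2 array. The other 8 did not pass in PH, and the list's median log2 difference there was -0.12. Its sums overlapped, at 469.7 to 1544 in PL and 607 to 837 in PH. Of 8 epicardial markers Krt19 and Wt1 were called higher in PH (adjusted p = 3.79e-05 and 2.37e-04), also above background on no PL array. The other 6 did not pass, and that list's median log2 difference in PH was 0.56. The part of such cells in the Itga11 difference was not tested.

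Itga1, a receptor chain for basement membrane collagen, gave 329.5, 426, 315 and 356 in EL and 138, 129, 120.4 and 157 in EH. In PL it measured 113, 83.8, 116 and 112 and in PH 106, 142, 115 and 99.8. EL stood above the other 3 groups, which lay close together. EH was 2.62-fold lower than EL (adjusted p = 2.42e-05), the P2 fractions overlapped (adjusted p = 0.755), and the fraction difference changed between stages by 1.51 ± 0.20 on the log2 scale (adjusted p = 7.33e-04). Its second probe, which also spans an intron, gave a 2.46-fold lower signal in EH (adjusted p = 0.00753) and a change between stages of 1.16 ± 0.38 (adjusted p = 0.160). Itga2, the remaining collagen-binding chain and known from platelets, lay between 3.14 and 5.93 and was above background on no array.

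Of the α chains that recognize the RGD motif in their ligands, Itga5 is the chain whose protein the study stained alongside ITGA6. That staining was done at an embryonic stage before E15.5 and was low on atrial and high on ventricular cardiomyocytes. For Itga5 mRNA in the sorted fractions the paper reported no difference. The values here are mRNA at E15.5 and P2. Itga5, the fibronectin receptor chain, gave 172, 181, 186 and 192 in EL and 126, 132, 143 and 149.9 in EH. All EH arrays lay below all EL arrays, yet the difference was 1.33-fold (log2 -0.41 ± 0.15) and did not pass over all probes (adjusted p = 0.136). It passed with only the E15.5 arrays in the fit (adjusted p = 0.0118) and without PL sample 2 or PL sample 5 (adjusted p = 0.0447 and 0.0393). PL arrays gave 259.6, 210.3, 174 and 138 and PH arrays 164, 155, 166 and 137. These groups overlapped (log2 -0.30 ± 0.15, adjusted p = 0.295), and the difference passed without PL sample 5 (adjusted p = 0.0281).

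Itgav, the vitronectin receptor chain, gave 24.3, 27.3, 29.3 and 17.7 in EL and 47.4, 80.6, 86.4 and 63.1 in EH. At P2 it gave 5.55, 15.9, 32.1 and 10.0 in PL, where 1 of 4 arrays was above background, and 61.8, 76.4, 86.4 and 79.6 in PH. The fractions were fully separate at both stages. PH was 5.82-fold higher than PL (adjusted p = 6.45e-04). EH was 2.79-fold higher than EL (adjusted p = 0.0389), which missed the threshold when any of 10 arrays was left out (EL 2, 3, 6 or 8, EH 3, 6 or 8, PH 3, 4 or 5, adjusted p 0.0514 to 0.112). Its second probe gave 2.95-fold at E15.5 (adjusted p = 0.0131) and at least 3.65-fold at P2 (adjusted p = 3.49e-04). Itga8, the nephronectin receptor chain, averaged 42.7 ± 13.2 in EL and 40.8 ± 12.1 in EH and was above background on no P2 array, at least 2.12-fold lower in PL than in EL and at least 2.27-fold lower in PH than in EH (adjusted p = 2.61e-05 and 0.00433). Its P2 fractions, both below background, give no fold. Itga2b, the platelet fibrinogen receptor chain, was above background on EH samples 2 and 8 only and averaged 14.2 ± 3.52 over the 4 EH arrays against 5.87 ± 3.78 in EL (adjusted p = 0.0322), which missed the threshold without any of 6 arrays (EL 2, 6 or 8, EH 2, 6 or 8, adjusted p 0.0732 to 0.0986) and with sample number as a block (adjusted p = 0.0778).

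Itga9, the α chain for tenascin and VCAM-1, ran against the sort. It gave 840.4, 698, 873 and 697 in EL and 395, 341, 478 and 378 in EH. At P2 the signal was 3381, 2143, 2926 and 2559 in PL and 1149.6, 826, 816 and 712 in PH. Each high fraction lay fully below the low fraction of its stage. EH was 1.96-fold lower (log2 -0.97 ± 0.17, adjusted p = 0.00198) and PH 3.15-fold lower (log2 -1.65 ± 0.17, adjusted p = 1.14e-05), the latter under 3-fold without PL sample 2 or PH sample 5. Both P2 groups exceeded their E15.5 counterparts, PL 3.51-fold and PH 2.18-fold (adjusted p = 3.31e-06 and 2.66e-04). Its relative Itga4, the VCAM-1 receptor chain of leukocytes, was above background on EH sample 6 only, at 24.9. EH sample 6 also had the highest leukocyte sum, and the part of leukocytes in the Itga4 signal was not tested.

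Of the β chains, Itgb1 did not pass between the fractions at either stage and Itgb5 passed at both. Itgb1, the common partner of most of the α chains above, averaged 594 ± 73.9 for EL and 707 ± 109 for EH at E15.5, and 686 ± 51.2 for PL and 629 ± 76.0 for PH at P2 (SD, n = 4). All groups overlapped, with log2 differences of 0.25 ± 0.12 at E15.5 (adjusted p = 0.325) and -0.13 ± 0.12 at P2 (adjusted p = 0.660). Its second probe gave -0.07 ± 0.20 and -0.23 ± 0.20. Itgb5, a partner of Itgav, was higher in both high fractions on every array, with 3011 to 3219 in EL against 3612 to 4274 in EH and 2488 to 3063 in PL against 3605 to 4383 in PH. These were rises of 1.23-fold (adjusted p = 0.0389) and 1.40-fold (adjusted p = 9.59e-04), and the former missed the threshold without any of 9 arrays (EL 2, 3, 6 or 8, EH 3, 6 or 8, PL 3, PH 3, adjusted p 0.0503 to 0.119). With scaling to the 75th percentile neither passed (log2 0.12 and 0.34, adjusted p = 0.587 and 0.124).

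Of the remaining β chains, chosen after their values were seen, Itgb3, Itgb4 and Itgb6 passed between the stages in both fractions. Itgb7 and Itgb8 passed in the high fraction only, and Itgb2 in neither. Itgb3, another Itgav partner and known from platelets and endothelium, gave 132, 90.8, 172 and 122 in EL and 46.8, 42.9, 90.2 and 75.5 in EH and was above background on no P2 array. PL was at least 6.51-fold below EL and PH at least 3.79-fold below EH (adjusted p = 6.12e-08 and 1.56e-06). The highest EH array gave 90.2 and the lowest EL array 90.8, and the difference between the group means, 2.07-fold, did not pass (adjusted p = 0.0548) but passed with sample number as a block (adjusted p = 0.0367). Its second probe was below background throughout. Itgb6, the partner of Itgav in epithelia, ran the other way. It was above background on no E15.5 array and gave 65.2, 62.7, 104 and 44.8 in PL and 42.5, 53.5, 69.95 and 19.1 in PH, where 3 of 4 arrays were above background. This was at least 4.52-fold higher in PL than in EL and at least 3.56-fold higher in PH than in EH (adjusted p = 6.00e-06 and 1.83e-05). Its second probe was above background on no array. Itgb4, the partner of Itga6 in hemidesmosomes, averaged 25.3 ± 9.07 in EL and 36.5 ± 9.64 in EH, with 2 and 4 of 4 arrays above background, and was above background on no P2 array (at least 1.25-fold and at least 2.17-fold lower, adjusted p = 0.00169 and 0.00301). Itgb7, of lymphocyte homing receptors, was above background on EH samples 2, 3 and 6 and nowhere else, and Itgb8, another Itgav partner, on no array, so that its fitted difference between EH and EL (adjusted p = 0.0126) is no measured level and did not pass with sample number as a block (adjusted p = 0.0730).

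The leukocyte α chains gave little signal apart from 1 probe. Itgam, a chain of the macrophage and granulocyte receptor Mac-1, gave 2525, 3038, 3127 and 2600.1 in EL and 3872, 3341, 4247 and 3232 in EH by its brightest probe. The neonatal arrays gave 9532, 4399.7, 11759 and 6261 in PL and 3139, 3287, 2979 and 3130.1 in PH. All EH arrays lay above all EL arrays but the difference did not pass (log2 0.38 ± 0.23, adjusted p = 0.471). PH lay fully below PL, 2.38-fold (adjusted p = 0.00208, and 0.0527 with the P2 groups alone in the fit). The fraction difference changed between stages by -1.63 ± 0.33 (adjusted p = 0.0141), the only member past both parts of the criterion for this change (1 of 37 lower, against 0.829% of all genes, and 0 of 37 higher, against 0.747%). It was no longer so without EL sample 2, EH sample 6, PL sample 2 or PL sample 4. By adjusted p alone 3 members changed upward (Itga1, Lama4 and Lamb3, background 2.40%) and Itgam downward (background 1.88%). With sample number as a block Itga9, Lama2 and Lama5 also passed as downward (adjusted p = 0.0391, 0.0482 and 0.00907). The brightest Itgam probe is the one with the CA repeat. The second probe was above background on the PL arrays only, at 33.1, 29.8, 29.2 and 30.0, at least 1.90-fold above PH (adjusted p = 0.00196), and the remaining probe on EH sample 8 only. No P2 leukocyte marker differed past 3-fold, and Ptprc, Lyz2, C1qa and Emr1 were above background on no P2 array. Itgal, Itgax, Itgad and Itgae, chains of other leukocyte receptors, were above background on at most 1 array of any group by their brightest probes, and Itgb2, the β chain of Itgam, Itgad, Itgal and Itgax, on EH samples 6 and 8 and PL sample 5. For Itgal, Itgax and Itgb2 the highest signal in EH was that of sample 6, whose leukocyte markers were also the highest. The part of leukocytes in these signals was not tested.

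**Figure D5:**
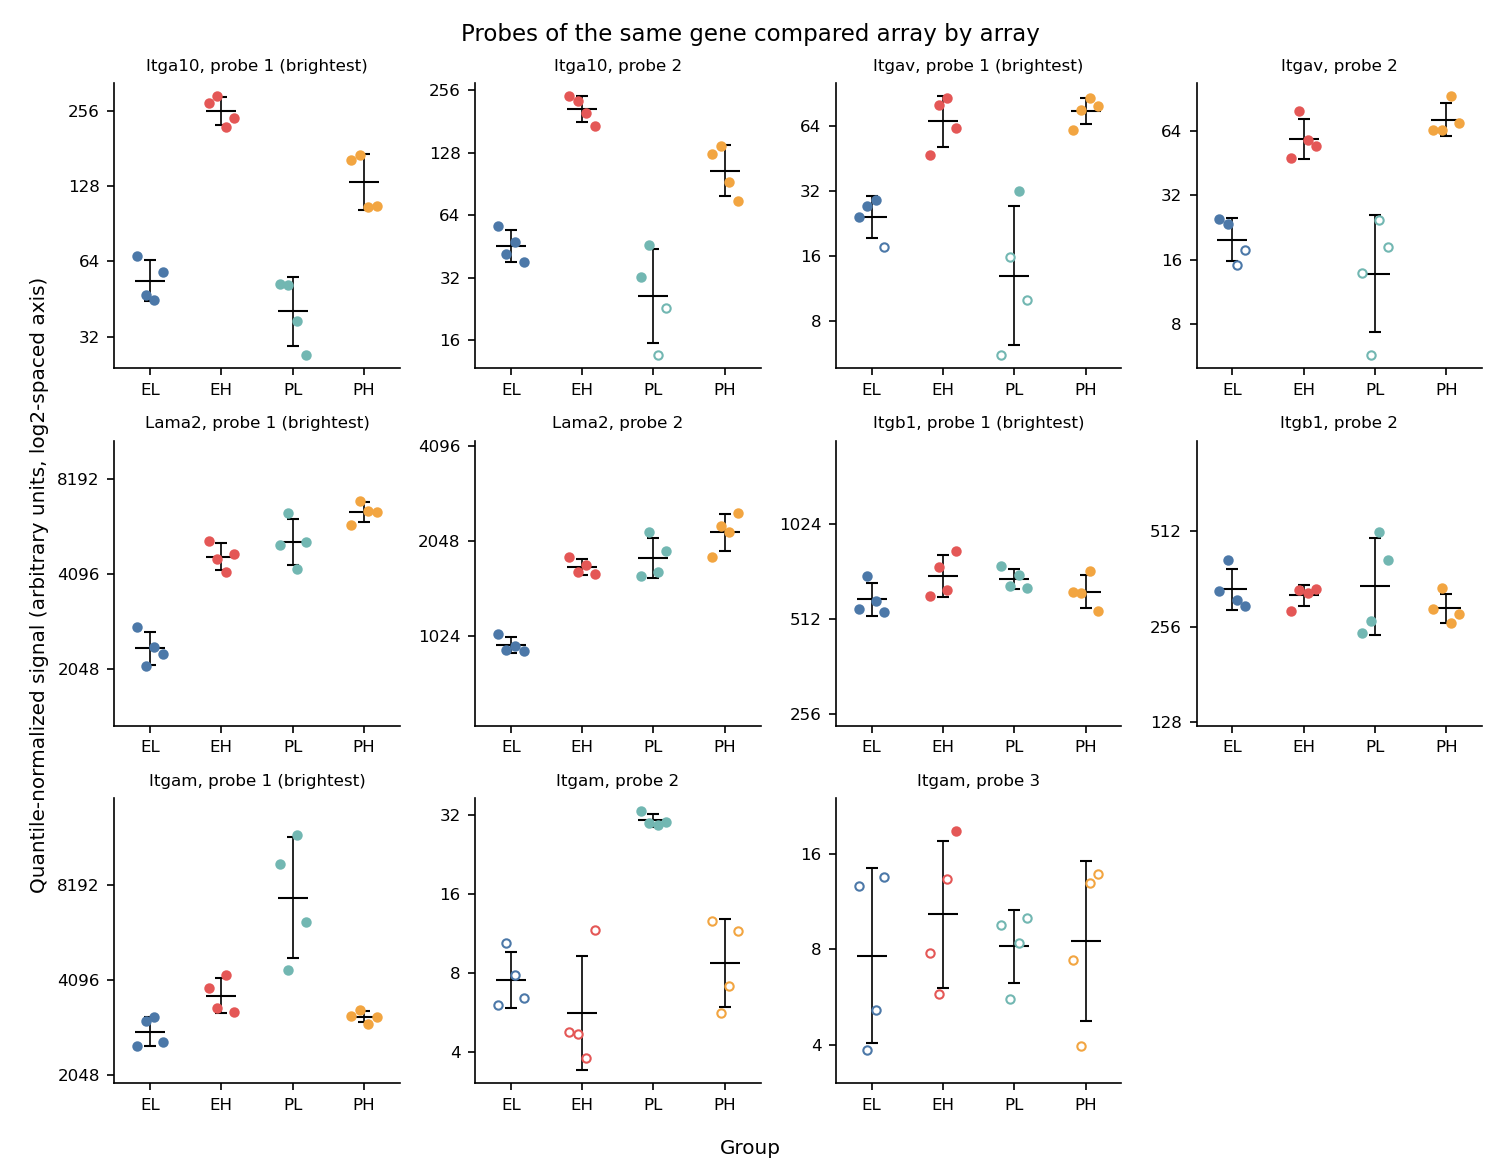
Normalized signal (arbitrary units, log2-spaced axis) of the probes of Itga10, Itgav, Lama2, Itgb1 and Itgam by group, each point an array, hollow where not well above background, with mean ± SD of the log2 values (n = 4). The probes of Itga10, Itgav and Lama2 rank the groups alike, while the brightest Itgam probe is above background on all 16 arrays and its other probes on few.

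The laminin α chains followed the sort unevenly. Lama2, the α chain of muscle laminin, gave 2797, 2100.4, 2416 and 2296 in EL and 5227, 4573, 4157 and 4750.4 in EH. The P2 values were 5059, 6419, 4256 and 5196 in PL and 5861, 7009.8, 6473 and 6449.7 in PH. EL stood below the other groups, and the P2 fractions overlapped. EH was 1.95-fold above EL (adjusted p = 1.55e-04), PH 1.24-fold above PL (adjusted p = 0.143, and 0.0299 without PL sample 3), and the change between stages, -0.65 ± 0.17 on the log2 scale, did not pass (adjusted p = 0.0652) without sample number as a block and passed with it (adjusted p = 0.0482). PL exceeded EL 2.17-fold (adjusted p = 1.47e-05) and PH exceeded EH 1.38-fold (adjusted p = 0.0161), the latter not past the threshold without EH sample 6 or PH sample 3 (adjusted p = 0.0541 and 0.0507) or with scaling to the 75th percentile (0.0599). The second Lama2 probe gave 1.77-fold and 1.21-fold between the fractions.

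Lama1, a laminin chain of early embryonic basement membranes, gave 26.7, 19.4, 13.7 and 6.45 in EL, with 1 of 4 arrays above background, and 59.3, 72.6, 70.6 and 44.5 in EH. It was above background on no P2 array. EH lay above all other groups, 4.15-fold over EL (adjusted p = 0.00744) and at least 3.62-fold over PH (adjusted p = 0.00561). Lama5, a broadly expressed laminin chain, gave 4345, 4619, 3788 and 3922 in EL and 6637, 6223, 5768 and 5689 in EH, a 1.46-fold rise (adjusted p = 0.0140) that was log2 0.58 within slide 1 and 0.46 within slide 2. It did not pass within slide 1 (adjusted p = 0.112) or with scaling to the 75th percentile (adjusted p = 0.160). For slide 2, with its 1 EH array, the fold alone is given. At P2 Lama5 gave 2197, 1968, 1547 and 1984 in PL and 2203, 1779, 1497 and 1748 in PH, which overlapped. Both lay below their E15.5 counterparts, 2.18-fold in the low and 3.39-fold in the high fraction (adjusted p = 1.76e-05 and 4.75e-07).

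Lama4, a laminin chain of vessels and muscle chosen after its values were seen, ranged over 1804 to 2018 among EL arrays, 1962 to 2304 among EH, 806 to 961 among PL and 1213 to 1375 among PH. PH was 1.51-fold above PL (adjusted p = 7.95e-05). The E15.5 fractions overlapped (adjusted p = 0.316), and the change between stages, 0.44 ± 0.11 on the log2 scale (adjusted p = 0.0373), missed the threshold without any of 11 arrays (EL 2, 3 or 8, EH 2, 3 or 6, PL 4 or 5, PH 2, 3 or 5, adjusted p 0.0566 to 0.0780), and with scaling to the 75th percentile, normexp and signals raised to the background floor (adjusted p = 0.1802, 0.0516 and 0.206). Both P2 groups lay below their E15.5 counterparts, 2.18-fold and 1.61-fold (adjusted p = 1.77e-07 and 1.93e-05). Lama3, the α chain of the epithelial anchoring laminin, averaged 29.1 ± 9.95 for EL and 25.6 ± 6.86 for EH at E15.5, and 43.1 ± 8.59 for PL and 22.9 ± 7.02 for PH at P2 and passed in no comparison, and its second probe was above background on EH sample 2 only.

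Lamb3, a β chain of epithelial laminin, gave 54.8, 42.7, 42.6 and 43.2 in EL and 211, 219, 243 and 199 in EH. In PL it measured 78.9, 102, 130.0 and 86.6 and in PH 1230.4, 1022, 1256 and 1284. The 4 groups did not overlap at all, in the order EL, PL, EH, PH. EH was 4.78-fold above EL (log2 2.26 ± 0.14, adjusted p = 4.24e-07) and PH 12.2-fold above PL (log2 3.61 ± 0.14, adjusted p = 1.78e-09). The fraction difference was larger at P2 by 1.36 ± 0.20 on the log2 scale (adjusted p = 0.00188), and both fractions rose between stages, 2.14-fold in the low and 5.48-fold in the high (adjusted p = 6.93e-05 and 9.39e-08).

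The chains common to most laminins, chosen after their values were seen, differed little between the fractions. Lamb1 was 1.31-fold higher in EH (adjusted p = 0.0349) and 1.29-fold higher in PH (adjusted p = 0.0401). The first of these missed the threshold without any of 7 arrays (EL 2, 3, 6 or 8, EH 2, 3 or 8, adjusted p 0.0552 to 0.0969) and the second without any of 11 (EL 2, 3, 6 or 8, EH 2 or 8, PL 2 or 4, PH 3, 4 or 5, adjusted p 0.0503 to 0.101). With sample number as a block neither passed (adjusted p = 0.0558 and 0.0591). Lamc1 was 1.27-fold higher in EH (adjusted p = 0.0433), with sample number as a block 0.119, and missed the threshold without any of 11 arrays (EL 2, 6 or 8, EH 2, 3, 6 or 8, PL 3, PH 3, 4 or 5, adjusted p 0.0520 to 0.127). With scaling to the 75th percentile the log2 differences were 0.19 and 0.17 for Lamb1 and 0.16 for Lamc1 in EH, and none passed (adjusted p = 0.479, 0.728 and 0.507). Lamb2 did not pass between the fractions (adjusted p = 0.0607 and 1.00). Between the stages Lamb1 and Lamc1 fell in both fractions by 1.38-fold to 1.56-fold, while Lamb2, the β chain of synapse and mature muscle basement membranes, rose 2.27-fold in the low and 1.70-fold in the high fraction (adjusted p = 2.86e-05 and 0.00131). Lamc3 was above background on no array.

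Counted over the stages, which share their samples with the fraction comparisons, 4 of 37 genes were higher in PL than in EL past a fitted 3-fold (Itga6 by its brightest probe, Itga7, Itga9 and Itgb6, background 1.86%) and 5 were lower (Itga1, Itga8, Itga11, Itgb3 and Itgb4, background 2.86%). Between EH and PH, 3 were higher (Itga7, Itgb6 and Lamb3, background 1.44%) and 7 lower (Itga4, Itga8, Itgb3, Itgb4, Itgb7, Lama1 and Lama5, background 2.94%). Without a single array, the calls of Itga11 in PL (EL 8, PL 2, 3 or 4), of Itga8 in PH (EH 6, PH 2 or 4), of Itgb4 in PH (PH 3) and of Itgb7 in PH (EH 6 or PH 4) were lost. With normexp background correction Itga1, Itga8, Itga11 and Itgb4 were no longer called lower in PL, nor Itga4, Itga8, Itgb3, Itgb4, Itgb7 and Lama1 in PH, nor Itgb6 higher in either. The falls of Itga8 and Itgb4, whose P2 arrays were all below background, were bounded under 3-fold in both fractions, as given above, and were not called with signals raised to the background floor. Itga4, Itgb7 and Itgad (passing as higher in PL, adjusted p = 0.0429) had too few arrays above background for a measured fold. Itga11 in EL was at the background on 2 of 4 arrays and its fall did not hold with signals raised to the background floor (log2 0.18). By adjusted p alone the counts were 9 higher and 11 lower in PL (background 11.7% and 12.7%) and 7 higher and 13 lower in PH (background 11.1% and 10.8%). Non-myocyte markers moved with the stages as well. Fibroblast and mesenchymal markers summed to 22416, 12910.0, 18943 and 14637 in EL and 10272, 5611, 10692 and 9725 in EH against 1544, 719, 469.7 and 669 in PL and 648, 792, 837 and 607 in PH, with 9 of 10 called lower in each fraction and Col1a2 the brightest. Epicardial markers summed to 3523, 3379, 4352 and 3347 in EL and 1720.1, 1197, 2892 and 2215 in EH against 221, 111, 70.04 and 132 in PL and 205, 199.6, 273 and 167 in PH, with 8 of 8 called lower in PL and 7 in PH. Leukocyte markers were called lower for 1 of 9 in PL and 7 in PH, endothelial markers for 1 of 10 and 7, and platelet and erythroid markers for 3 of 7 and 5. Upk3b and Upk1b of the epicardial list and Pdgfra, Tcf21 and Thy1 of the fibroblast list were above background on no P2 array. Their part in the falls of Itga8, Itgb3, Itgb4, Itga1 and Lama5 was not tested.

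The molecules that work beside these chains were described by list. By adjusted p alone 5.89% of all genes passed as higher and 4.81% as lower in EH, and 8.07% and 6.73% in PH. Of 10 other laminin receptors (dystroglycan and its complex, and Bcam), 2 passed as higher in EH and 2 in PH, Sgce and Sspn in both, and Sgca was 1.66-fold lower in PH (adjusted p = 1.94e-04). Sgce, a sarcoglycan, was 1.88-fold higher in EH (adjusted p = 4.16e-05) and 2.13-fold higher in PH (adjusted p = 3.92e-06), and Sspn, a tetraspanin-like protein of the same complex, had the highest mean signal of the list. None was called between the fractions, and the list's median log2 difference was 0.22 at E15.5 and -0.08 at P2. Of 8 basement membrane partners, 3 passed as higher in EH and 5 in PH with 1 lower, Hspg2. Nid2, which links laminin to collagen IV, was 4.12-fold higher in PH (adjusted p = 5.98e-06), Col4a5 was higher in both (1.64-fold and 1.66-fold, adjusted p = 1.24e-04 and 5.21e-05), and Agrn had the highest mean signal.

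Of 12 other integrin ligands, 4 were above background on all 16 arrays. Fbln1, a matrix glycoprotein, was higher in both high fractions (fitted 5.48-fold and 28.5-fold, adjusted p = 4.23e-05 and 3.62e-08). Thbs1 and Vcam1 also passed as higher in PH and Postn as lower, with Mfge8 the brightest and Vtn above background on no array. Of 21 adhesion complex genes, 3 passed as higher and 4 as lower in EH, and 4 and 3 in PH. The shares over all genes were 5.89% and 4.81% in EH and 8.07% and 6.73% in PH. Lims2, an adaptor of integrin-linked kinase, was 3.76-fold higher in EH and 5.01-fold in PH (adjusted p = 9.08e-04 and 9.84e-05), the only gene of the list past both parts of the criterion, and its relative Lims1 was lower in both (1.47-fold and 1.41-fold, adjusted p = 0.0322 and 0.0474). Csrp3, a muscle protein at the Z disc, rose in both (1.70-fold and 2.03-fold, adjusted p = 8.08e-05 and 2.94e-06) and was the brightest. Fermt1 was above background on no array, and Sorbs2 fell in both (2.91-fold and 1.61-fold, adjusted p = 3.74e-06 and 0.00207). Of 8 hemidesmosome genes and tetraspanins, Cd9 passed as higher in EH and Cd9, Cd82 and Cd151, the tetraspanin partner of laminin-binding integrins, in PH, while Plec, which ties Itgb4 to the cytoskeleton, was 1.65-fold lower in PH (adjusted p = 9.43e-05). Cd81 was the brightest, and Col17a1 was above background on no array.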

How the data were processed

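RNA of the sorted cells was amplified and hybridized to one-color Agilent 8x60K arrays by the authors, 1 array per sample. The deposited scanner files hold spot intensity on a linear scale, background-subtracted by Agilent Feature Extraction 10.7.3.1 (per the file headers), and positions on mm9. The authors' deposited value table, log2 and quantile normalized, had a median absolute difference of 0.00029 from the values used here over 55673 probes, on the log2 scale.

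Here the processed intensity was averaged over the non-outlier spots of each of 55681 probes, quantile normalized between arrays, taken to log2 and fitted with limma 3.58.1 (R 4.3.3), with 1 mean per group over all 16 arrays and Benjamini-Hochberg adjustment over all probes. Calls needed an adjusted p of at most 0.05 and at least 3-fold, the limits that the methods set on another test, which was run as an alternative. Adjusted p-values in the text are from this fit. Signals are normalized intensities in arbitrary units, and the number of arrays limits their precision. The change of the fraction difference with stage, PH against PL minus EH against EL, was tested as an interaction.

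The members and gene lists were chosen with earlier results of these data known. Genes described in full were the markers Itga6, Itga5, Itgb1 and Lama2, members called between fractions with their brightest group measured on all arrays, the 5 largest differences per comparison among genes measured on all 16 arrays, and genes whose well measured probes differed in call. For each list these were the brightest gene and up to 3 with the largest differences. Other genes were named after their values were seen. Some genes that enter the counts are not reported by name or drawn here. Itgb1bp3 and Plec1 were not on the array.

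Array files were checked for repeats, and 0 of 120 pairs were identical. The fit was tested on simulated data of the same size: of 100 probes changed 6-fold in each way, 80 raised and 89 lowered were called in EH against EL, 86 and 91 in PH against PL, and 66 of 100 in the interaction, with 4, 5 and 3 calls among 55373 unchanged probes. At E15.5 the deviations of same-numbered EL and EH samples from their group means correlated at 0.255, 0.189, 0.450 and 0.379. Samples of different number were not compared in this way, so these values do not show pairing. EL and EH samples 2, 6 and 8 also shared a slide, whereas samples 3 did not. That the numbers, which the labels give without explanation, pair these samples is an assumption of the fits with sample number as a block. Alternatives covered the scaling, background correction (normexp, offset 50), deposited values, detection filter, background floor, sample number and slide as blocks, samples in the fit, the methods' test, the probe of a gene, the threshold and each array left out.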

Additional observations from a re-analysis of the deposited data

Results flagged for a closer look

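Single samples stood far from the other 3 of their group in 3 of 57 groups of 4 tested, where chance gives about 1 in 20. Itga1 was lowest in PL sample 3, at 83.8, Itga7 was highest in EL sample 6, at 232.3, and Lamb3 was highest in EL sample 2, at 54.8. The last of these lay below every array of the other groups.

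The difference between the fractions changed with stage for 4 of 37 genes tested by adjusted p alone (limma interaction), 3 higher and 1 lower, against 2.40% and 1.88% of all genes. The change was 1.51 for Itga1, -1.63 for Itgam by its brightest probe, 0.44 for Lama4 and 1.36 for Lamb3 on the log2 scale, with adjusted p of 7.33e-04, 0.0141, 0.0373 and 0.00188. That of Lama4 missed the threshold without any of 11 arrays, as given above, and that of Itgam fell below 3-fold without EL 2, EH 6, PL 2 or PL 4. With sample number as a block these 4 genes still passed. Itga9, Lama2 and Lama5 passed as well, all changing downward (adjusted p = 0.0391, 0.0482 and 0.00907). Stage, slide and isolation procedure cannot be told apart in these values.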

How the results depend on the processing

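Over the settings other than leaving out an array, 725 gene results kept their direction and side of the threshold, 63 no longer passed, 10 came to pass and 11 turned direction. With an array left out the numbers were 1281, 104 and 7, and none turned. With signals raised to the background floor, Itga11 in PL against EL became 0.18, Lama1 in PH against PL -0.21, Itga4 0.30 in PL against EL and 0.18 in PH against EH, Itga8 in PH against PL -0.16, and Itgb8 -0.32 in EH against EL and 0.45 in PH against EH, all of genes with arrays below background. With the median over the probes of a gene, Itga1 in PH against PL became -0.0090 and Itgam in EH against EL -0.074. Itga6 by its brightest probe became -0.088 in PH against PL with scaling to the 75th percentile, and Itgb1 became -0.019 in EH against EL within slide 2. The cause was not tested.

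The counts of members called that moved by more than 1.5 times were as follows. Normexp left 0 higher in EH against EL, 1 higher in PH against PL, 1 lower in PL against EL and 1 lower in PH against EH. Slide 2 alone, whose 1 EH array was assumed to vary like the other groups, gave 2 higher and 2 lower in EH against EL. By adjusted p alone there were 13 higher and 3 lower in EH against EL, 8 and 3 in PH against PL, 3 higher in the interaction, 9 and 11 in PL against EL, and 7 and 13 in PH against EH. The background floor gave 2 lower in the interaction, 2 lower in PL against EL and 3 lower in PH against EH. The median over probes gave 0 lower in the interaction. With the RefSeq probe of Itga6 and the brightest Itgam probe without a CA repeat, a setting chosen after seeing the data, there were 2 lower in PH against PL and 0 lower in the interaction. Smaller changes in the calls came with normexp, which lost Itgb6 in both stage comparisons, with detected probes alone, which lost Itga4 and Itgb7 in PH against EH, and with slide as a block, which gained Itgav in EH against EL. Slide 1 alone lost Lama1 and gained Itga2b there, and the methods' test lost Itgb7 in PH against EH. The median over probes gained Itga6 in both fraction comparisons and lost Itga6 in PL against EL and Itga4 in PH against EH.

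Leaving out each array in turn gave 4 to 5 members higher and 0 lower in EH against EL, 3 to 5 and 0 to 1 in PH against PL, 0 to 1 and 0 to 1 in the interaction, 4 to 6 and 4 to 6 in PL against EL, and 3 and 5 to 7 in PH against EH.

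With sample number as a replicate block the calls numbered 4 higher and 0 lower in EH against EL, 4 and 1 in PH against PL, and 0 and 1 in the interaction, as without it. At P2 samples of 1 number correlated at 0.375, 0.176, -0.031 and 0.542, so the numbers may not pair them. Among single genes the block changed the side of the threshold for Itga6 by its brightest probe, Itga2b, Itgb8, Lamb1, Lamc1 and Itgb3 between fractions, as given above, and in the interaction for Lama2, as given above, Itga9 (adjusted p = 0.0391) and Lama5 (adjusted p = 0.00907), which passed with it, and for no other of the 37 genes in the fraction comparisons and the interaction. The stage comparisons could not be fitted with this block.

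Of the 37 genes, 11 had no group with all arrays above background, and their differences are not measured folds.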

Other observations

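Single genes from the lists of molecules beside the integrins and laminins also differed between stages, and were named after their values were seen. Among the other laminin receptors, the sarcoglycans Sgca and Sgcb were higher at P2, by 3.14-fold and 2.55-fold in the low fraction and 1.56-fold and 2.47-fold in the high fraction (limma, adjusted p from 9.45e-08 to 4.33e-04). Sspn rose with them, 1.76-fold and 1.79-fold (adjusted p = 3.83e-06 and 3.81e-06). The largest rises of that list, not in these genes, were log2 3.98 in the low fraction and 3.25 in the high fraction.

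The folds of these list genes are fitted values, not bounds. Fn1, the gene of fibronectin, the ligand of the Itga5 receptor, was 70.1-fold lower in PL than in EL and 36.6-fold lower in PH than in EH (adjusted p = 3.02e-09 and 1.85e-08). Col18a1, a basement membrane collagen, fell 16.5-fold and 20.9-fold (adjusted p = 9.59e-05 and 6.04e-05), while Col4a2 rose 2.10-fold and 2.05-fold (adjusted p = 1.98e-04 and 3.36e-04). Cd151, a tetraspanin partner of laminin-binding integrins, rose 1.62-fold and 2.21-fold (adjusted p = 1.12e-04 and 1.76e-06). Stage cannot be told apart from slide and isolation, and fibroblast marker sums fell with it, a part that was not tested.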
